A study of Mus musculus with 6 samples.

Results

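The genes described here are Atf3 and the AP-1 transcription factors Fos, Fosb, Fosl1, Fosl2, Jun, Junb, Jund, Batf and Maff, measured in mouse kidney. They were chosen by symbol, and all 10 were found among the 22183 genes of the deposited table. All 10 also passed the filter on low counts that left 14432 genes for testing. Fosl1 and Batf, at up to 2 and 18 control reads per library, needed their Wnt1 libraries to pass. Both are among the members counted as higher below. In kidneys given a Wnt1 plasmid, 8 of the 10 transcripts were higher than in kidneys given the empty vector, by 1.55-fold for Jun to 6.58-fold for Maff, and by more, with a wide counting interval, for the scarce Fosl1. Among all genes tested 22.4% were called higher. Fos and Jund did not pass the test, and the calls of Jun and Fosb were lost in 3 and 4 of the other settings tried.

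AP-1 is a dimer of bZIP proteins, which grip DNA with a basic region and pair through a leucine zipper. Jun proteins can pair with each other or with Fos proteins, whereas Fos proteins need a partner such as Jun. Atf3, Batf and the small Maf protein Maff lack the strong activation domains of Fos and Jun, and often repress or reshape the programme of their partners. Several of these genes are immediate early genes, copied into RNA within minutes of growth factors, cytokines or injury, and Atf3 is a widely used mark of the stressed kidney tubule.

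The study compared 3 kidney libraries from mice treated with pcDNA3, an empty expression vector (control), with 3 from mice that received a plasmid for Wnt1, a secreted Wnt ligand, and that the labels describe as overexpressing it. The series title concerns Wnt/beta-catenin and ATF3 in the passage from acute to chronic kidney disease, but the labels used here state no injury, strain, sex, age, route or time, and no cell type that took up the plasmid. All libraries carry the same batch label, and the labels do not tie each library to its own animal. The p-values below therefore reflect the spread among these libraries alone, and part of it may be technical.

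Library totals lay between 23585020 and 27218085 rounded counts. The plasmid's own gene gave 0 reads in each control library and 0, 1 and 0 in Wnt1 replicates 1, 2 and 3, so it did not check the labels. Control replicate 3 and Wnt1 replicate 3 stood apart from the other libraries on the second principal component, which held 12.4% of the variance. The kidney label held for the libraries: 10 proximal tubule markers summed to 36756 to 45163 CPM in controls and 6769 to 10108 CPM with Wnt1 (CPM, counts scaled to library size after scaling by TMM composition factors). Markers of skeletal muscle and fat summed to at most 2.39 CPM and those of the adrenal gland to at most 3.23 CPM, with Cyp21a1 at 0 throughout.

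Across the family, 8 of 10 transcripts were called higher by edgeR's quasi-likelihood test at an adjusted p under 0.05, against 22.4% of all genes tested. No member was called lower, against 18.7% of all genes tested; none had a negative log2 fold change, so none was lower at an unadjusted p under 0.05 either, and DESeq2 and limma called none lower. For 8 members every Wnt1 library stood above every control library, as it did for 28.2% of all genes. At a rise of at least 2-fold 7 members were called, against 15.3%. Fosl1 and Batf, which needed their Wnt1 libraries to pass the filter, are among the members in each of these counts of rises. The median log2 fold change was 1.84 over the members and 0.05 over all genes tested.

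**Figure D1:**
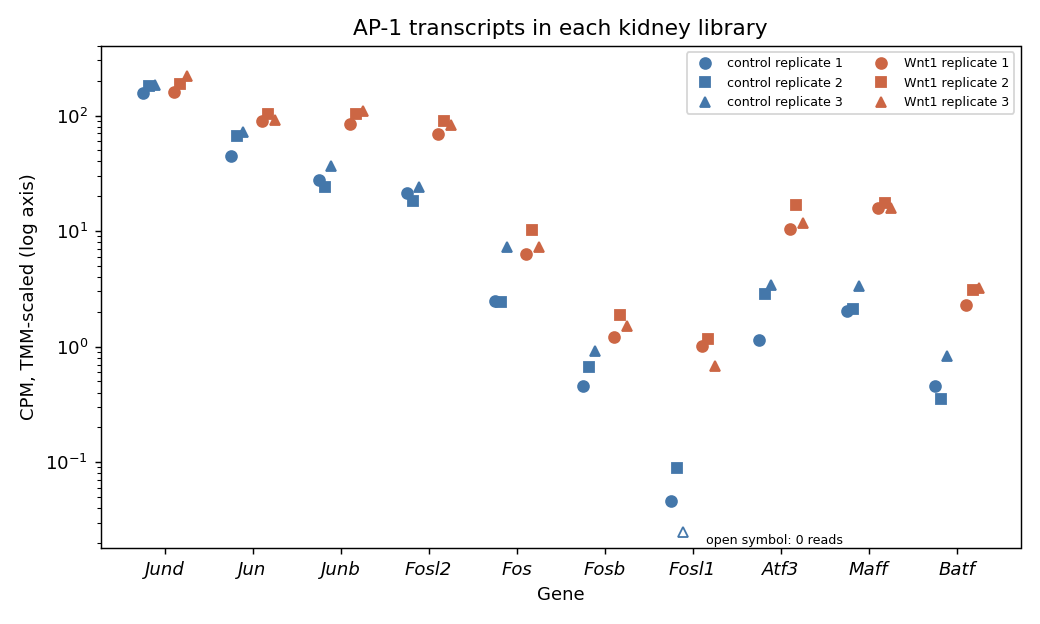
TMM-scaled CPM (log axis) of each gene in the 3 control (blue) and 3 Wnt1 (orange) libraries, with a symbol for each replicate and an open symbol for 0 reads. The groups are apart for every gene except Fos, where control replicate 3 (7.21 CPM) stands among the Wnt1 libraries, and Jund.

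Atf3 (ENSMUSG00000026628; GRCm38 chr1:191170296-191218039, minus strand), a stress-induced repressor and activator, was low in every control kidney. It stood at 1.15, 2.88 and 3.42 CPM in control replicates 1, 2 and 3 and at 10.4, 16.9 and 11.7 CPM in Wnt1 replicates 1, 2 and 3. The groups were apart, with the lowest Wnt1 library 3.04-fold above the highest control, although the controls differed among themselves by 2.98-fold. The log2 fold change was 2.38 ± 0.39 (standard error; edgeR adjusted p = 0.00226; 95% interval 1.48 to 3.29), and 4.64% of all genes tested had a larger rise. Proximal tubule markers were lower and macrophage markers higher with Wnt1, and the cells that held the Atf3 reads were not tested. The RefSeq start of Atf3 gives the 250 bases below (GRCm38.p6, chr1:191183334-191183583, minus strand, 5′ to 3′), shown because Atf3 is the gene in the study's title. The window lies in an intron of the longest GENCODE M21 transcript, and its last 7 bases are the first of an Atf3 exon of other transcripts, which the motif enters. Capitals mark TTACGTCA, a form of the ATF/CREB site that was added to the search after the window had been read, at 10 to 3 bases before the start.
Atf3: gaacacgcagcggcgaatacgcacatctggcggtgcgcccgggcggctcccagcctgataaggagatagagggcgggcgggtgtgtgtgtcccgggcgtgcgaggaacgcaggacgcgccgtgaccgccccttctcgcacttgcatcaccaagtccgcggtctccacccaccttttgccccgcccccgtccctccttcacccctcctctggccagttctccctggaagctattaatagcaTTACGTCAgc
This motif was found on either strand in 0.447% of the 32851 RefSeq windows of this length. The other motifs searched on both strands were TGACTCA (the AP-1 site, in 4.46% of windows), TGACGTCA (the cyclic AMP response element, 1.55%), TGACATCA (2.93%), CTTTGAA (4.46%) and CTTTGAT (3.21%), both cores of TCF sites, and the CArG box of serum response factor (1.47%). No searched motif overlaps another in the windows printed here. The RefSeq table held windows for 9 of the 10 genes, all but Fosl1, and matches were found for Atf3, Jun and Maff. The match in Atf3 was known before its motif was searched, so the share of windows with that motif is no test of it. The share of all windows with any of these motifs was not computed, so the number of genes matched has no background.

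Maff (ENSMUSG00000042622; chr15:79346621-79359076, plus strand), a small Maf protein that pairs with the Fos and CNC proteins, had the largest rise among the members with more than a few control reads. Its levels were 2.02, 2.13 and 3.33 CPM in control replicates 1 to 3 and 15.8, 17.5 and 15.9 CPM in Wnt1 replicates 1 to 3. The Wnt1 libraries were close to each other, within 1.11-fold, and the lowest was 4.76-fold above the highest control. The log2 fold change was 2.72 ± 0.23 (edgeR adjusted p = 0.000107). Of 3 RefSeq windows for Maff, the window at chr15:79347270-79347519 (plus strand), intronic to another Maff transcript, held the cyclic AMP response element TGACGTCA at 29 to 22 bases before the start, in capitals below. Another Maff window held TGACATCA at 45 to 38 bases before its start, and the third held no searched motif.
Maff: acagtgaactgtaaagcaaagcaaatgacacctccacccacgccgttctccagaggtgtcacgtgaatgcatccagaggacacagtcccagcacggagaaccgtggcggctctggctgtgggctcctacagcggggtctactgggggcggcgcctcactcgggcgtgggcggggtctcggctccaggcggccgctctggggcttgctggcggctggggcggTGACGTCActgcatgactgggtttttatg

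Batf (ENSMUSG00000034266; chr12:85686669-85709087, plus strand), which pairs with Jun proteins and is known best from lymphocytes and myeloid cells, was scarce in control kidneys. It had 10, 8 and 18 reads in control replicates 1 to 3 (0.46, 0.354 and 0.821 CPM) and 72, 88 and 84 in Wnt1 replicates 1 to 3 (2.28, 3.11 and 3.19 CPM). The groups did not overlap, and the log2 fold change was 2.38 ± 0.36 (edgeR adjusted p = 0.00136). In the same libraries all 8 T cell markers listed were called higher (summed level 7.86 to 10.4 CPM in controls and 26.9 to 34.3 with Wnt1), as were all 9 macrophage markers (204 to 245 CPM and 1621 to 1947 CPM); no marker of either list was at 0 throughout. Of the T cell markers, Cd3d and Il7r needed their Wnt1 libraries to pass the filter on low counts. The part of leukocytes in the Batf reads was not tested. In bulk kidney RNA a change in the number of cells of a type cannot be told apart from a change in RNA per cell.

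The Jun family moved unequally. Jund (ENSMUSG00000071076; chr8:70698949-70700616, plus strand), a Jun protein of resting cells and here the most abundant member, stood at 158, 179 and 182 CPM in control replicates 1 to 3 and at 160.5, 189 and 221 CPM in Wnt1 replicates 1 to 3. The groups overlapped, and the log2 fold change was 0.14 ± 0.15 (edgeR adjusted p = 0.502; 95% interval -0.21 to 0.48). Junb (ENSMUSG00000052837; chr8:84974484-84978718, minus strand), a weaker activator that can oppose Jun, went from 27.8, 24.2 and 36.4 CPM to 85.1, 102 and 109 CPM. Every Wnt1 library was at least 2.34-fold above the highest control, and the fold change was 1.74 ± 0.19 on the log2 scale (edgeR adjusted p = 0.00028).

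Jun (ENSMUSG00000052684; chr4:95049034-95052222, minus strand), the founding AP-1 subunit and a substrate of the JNK kinases, had 45.0, 66.1 and 72.6 CPM in control replicates 1 to 3 and 90.1, 103 and 92.0 CPM in Wnt1 replicates 1 to 3. The groups were apart by a narrow margin, with the lowest Wnt1 library 1.24-fold above the highest control. The log2 fold change was 0.64 ± 0.19 (edgeR adjusted p = 0.0274). That call was lost without control replicate 2 (adjusted p = 0.0654), Wnt1 replicate 1 (0.0555) or Wnt1 replicate 2 (0.0844), with log2 fold changes of 0.57 to 0.75. Over all alternatives the adjusted p of Jun lay between 0.00205 and 0.0844. The window before the RefSeq start of Jun (chr4:95052223-95052472, minus strand), outside annotated exons and within the span of the antisense gene Junos, held TGACATCA at 45 to 38 bases before the start, in capitals; this is the form of the AP-1 site known from the Jun promoter, through which Jun acts on its own gene.
Jun: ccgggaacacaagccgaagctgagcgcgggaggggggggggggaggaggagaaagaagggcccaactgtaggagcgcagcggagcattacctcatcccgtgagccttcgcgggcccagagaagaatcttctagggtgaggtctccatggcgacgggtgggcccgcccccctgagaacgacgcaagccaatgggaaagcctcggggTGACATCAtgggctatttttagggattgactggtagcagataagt

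Of the Fos family, Fosl2 and Fosl1 moved most. Fosl2 (ENSMUSG00000029135; chr5:32135801-32157842, plus strand), a Fos protein without the strong activation domain of Fos, stood at 21.3, 18.03 and 23.9 CPM in control replicates 1 to 3 and at 69.7, 89.0 and 83.5 CPM in Wnt1 replicates 1 to 3. The groups were well apart, at 2.92-fold between nearest libraries, and the log2 fold change was 1.94 ± 0.16 (edgeR adjusted p = 0.000109). Fosl1 (ENSMUSG00000024912; chr19:5447547-5455946, plus strand), an AP-1 subunit of invading and wounded epithelia, had 1, 2 and 0 reads in control replicates 1 to 3 and 32, 33 and 18 in Wnt1 replicates 1 to 3. It was thus almost unseen in controls; the 0 in control replicate 3 allows up to 0.137 CPM at 3 counts. The ratio of summed counts was 21.3, with an exact 95% interval of 7.03 to 105 (3 control reads against 83), which like the floor covers counting error only (edgeR adjusted p = 0.00126). Fosl1 shares 1163 exonic bases with Ccdc85b on the opposite strand, and without stated use of strand their reads cannot be told apart there. Ccdc85b had 481 to 564 reads in controls and 679 to 974 with Wnt1, and the fold change was 0.28 ± 0.19 on the log2 scale (edgeR adjusted p = 0.289). The part of Ccdc85b reads in the Fosl1 counts was not tested.

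Fos (ENSMUSG00000021250; chr12:85473890-85477273, plus strand), the prototype immediate early gene, was measured at 2.48, 2.44 and 7.21 CPM in control replicates 1 to 3 and at 6.34, 10.2 and 7.28 CPM in Wnt1 replicates 1 to 3. Control replicate 3 stood above Wnt1 replicate 1, whereas the other controls lay well below all Wnt1 libraries. The log2 fold change was 0.97 ± 0.44 (edgeR adjusted p = 0.119; 95% interval -0.06 to 1.998). Without control replicate 3 it was 1.78 (adjusted p = 0.00594), and without both libraries numbered 3 it was 1.74 (adjusted p = 0.00101; range over the alternatives 0.00101 to 0.311). Fosb (ENSMUSG00000003545; chr7:19302696-19310051, minus strand), another early Fos gene, had 10, 15 and 20 reads in control replicates 1 to 3 (0.46, 0.664 and 0.913 CPM) and 38, 53 and 40 in Wnt1 replicates 1 to 3 (1.20, 1.88 and 1.52 CPM). The groups were apart, but at few reads. Its log2 fold change was 1.17 ± 0.35 (edgeR adjusted p = 0.0285), and the call was lost with DESeq2 (adjusted p = 0.0572) and without control replicate 1 (0.0887), control replicate 2 (0.0877) or Wnt1 replicate 2 (0.105; range over the alternatives 0.00293 to 0.105).

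The overlap of neighbouring genes touched other members too. Jund shares 877 exonic bases with Gm11175, Jun 232 with Junos and Junb 173 with Prdx2, each on the opposite strand. Gm11175 and Junos have no row of their own among the genes used here, and the fold change of Prdx2 was -0.05 ± 0.17 on the log2 scale (edgeR adjusted p = 0.848). How reads over shared bases were assigned is stated nowhere in the labels.

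Levels of different genes were compared per transcript length, as the authors' FPKM (fragments per kilobase of transcript, scaled to library size). These were used as deposited, without the TMM factors (0.848 to 0.879 in controls and 1.12 to 1.19 with Wnt1). They therefore serve to order genes within a group and not to compare a gene between groups. In controls the order of mean FPKM was Jund (89.6 ± 5.44, SD, n = 3), Jun (16.6 ± 3.66), Junb (14.1 ± 2.79), Fosl2 (2.78 ± 0.362), Fos (1.65 ± 1.09), Maff (1.13 ± 0.347), Atf3 (1.08 ± 0.502), Batf (0.491 ± 0.213), Fosb (0.18 ± 0.0639) and Fosl1 (0.0223 ± 0.022). Neighbours overlapped in range from Fosl2 down to Batf, and for Jun and Junb. With Wnt1 the order was Jund (131.8 ± 18.6), Junb (63.1 ± 7.39), Jun (34.6 ± 3.59), Fosl2 (14.3 ± 1.95), Maff (9.85 ± 0.811), Atf3 (7.61 ± 2.22), Fos (4.37 ± 1.22), Batf (3.46 ± 0.607), Fosb (0.621 ± 0.117) and Fosl1 (0.59 ± 0.17). There only Maff and Atf3, Fos and Batf, and Fosb and Fosl1 overlapped as neighbours. Junb passed Jun, and Maff and Atf3 passed Fos, although these pairs could not be told apart by range in controls.

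A share within a library does not move with the scaling of libraries, so the make-up of each family was followed as the share of its summed FPKM. The sums themselves were 120.3 ± 10.1 in controls and 229 ± 26.6 with Wnt1 for Jun, Junb and Jund, and 4.63 ± 1.38 and 19.9 ± 3.31 for the 4 Fos genes (SD, n = 3). Without TMM factors these sums do move with scaling. Jund alone had a mean FPKM of 89.6 in controls and 131.8 with Wnt1, at a TMM-scaled log2 fold change of 0.14. Junb held 12.4%, 9.46% and 13.2% of the Jun family in control replicates 1 to 3 and 27.4%, 27.9% and 27.1% in Wnt1 replicates 1 to 3. Its mean share was 15.8 percentage points higher with Wnt1, and the groups were far apart. Jund's share went the other way, from 76.3%, 75.9% and 71.8% to 56.1%, 56.0% and 59.9%. Jun held 13.7% ± 2.01 of the family in controls and 15.2% ± 1.87 with Wnt1, within the spread of the libraries. For Junb and Jund a two-sided exact permutation test returned p = 0.1, the smallest that 3 against 3 libraries allow, and 0.175 after adjustment over the 7 shares tested; for Jun it gave 0.5 (adjusted 0.583). The design cannot reach 0.05 here.

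In the Fos family Fosl2 held most of the FPKM in nearly all libraries, with 71.1%, 65.3% and 49.9% in control replicates 1 to 3 and 72.5%, 69.2% and 74.8% in Wnt1 replicates 1 to 3 (exact permutation p = 0.2, adjusted 0.28). Fos held 25.7%, 27.4% and 46.7% in controls and 20.5%, 24.5% and 20.2% with Wnt1 (exact p = 0.1, adjusted 0.175). Much of that difference rested on control replicate 3: the Wnt1 minus control difference in mean share was -11.5 percentage points for Fos and 10.1 for Fosl2, and -4.80 and 3.97 without that library. With CPM in place of FPKM, which leaves out transcript length, the differences were -6.12 and 6.22. Fosl1 held at most 1.20% in controls and 2.12% to 3.67% with Wnt1 (exact p = 0.1, adjusted 0.175). Fosb held 4.05% ± 1.83 and 3.13% ± 0.292 (exact p = 0.6). The log2 ratio of Atf3 to Jun FPKM, also free of library scaling, was -4.61, -3.84 and -3.72 in control replicates 1 to 3 and -2.43, -1.93 and -2.29 in Wnt1 replicates 1 to 3. Atf3 thus gained on Jun by 1.84 on the log2 scale (exact permutation p = 0.1).

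**Figure D2:**
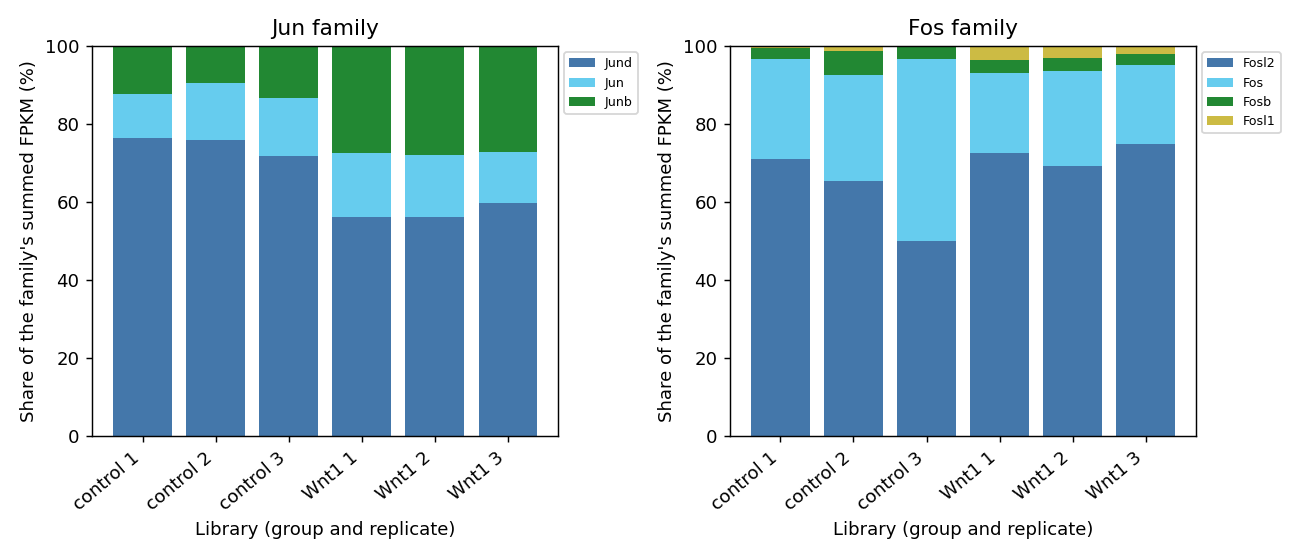
Share of the summed FPKM of the Jun family (left) and of the Fos family (right) held by each gene, as stacked bars for each library. Junb takes 27.1% to 27.9% of the Jun family in the Wnt1 libraries and at most 13.2% in controls, and Fos takes 46.7% of the Fos family in control replicate 3.

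Within groups the members ranked the libraries in a similar way. Control replicate 3 was the highest control library for 9 of the 10 members, as it was for 40.6% of all genes tested; the exception was Fosl1. The median ratio of that library to the mean of the other two controls was 1.503 over the members and 1.00 over all genes. Of 27 other immediate early genes tested, 20 were also highest in control replicate 3 among controls, with a median ratio of 1.41. Among Wnt1 libraries, replicate 2 was the highest for 7 of 10 members, against 24.1% of all genes tested, and replicate 1 for none, against 21.1%. The other immediate early genes were highest in Wnt1 replicate 3 for 16 of 27 (59.3%), close to the 54.8% of all genes tested. They were highest in replicate 2 for 11 (40.7%), against 24.1% of all genes tested. The labels give no handling, time or sample quality by which these libraries could be compared, and the part of such differences was not tested.

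Those other immediate early genes, which are read as a sign of recent stimulation or of tissue handling, rose in part between the groups. Of the 27 tested, 16 were higher and 1 was lower with Wnt1 (median log2 fold change 0.84), against 22.4% and 18.7% of all genes. Among the 16, Egr3, Nr4a2, Nr4a3 and Dusp2 needed their Wnt1 libraries to pass the filter on low counts. Socs3, a feedback inhibitor of cytokine signalling, went from 3.81 ± 0.297 to 55.5 ± 9.69 CPM (mean ± SD, n = 3; log2 fold change 3.86 ± 0.19, edgeR adjusted p = 2.22e-05). Egr2, an early zinc finger factor, went from 0.862 ± 0.248 to 8.61 ± 2.89 CPM (3.31 ± 0.34), Ier5 from 17.2 ± 0.347 to 43.5 ± 3.63 CPM (1.34 ± 0.13), and Klf10, a TGF-beta-induced early gene, from 17.0 ± 0.916 to 41.7 ± 7.56 CPM (1.297 ± 0.17). The lower one was Dusp1, a phosphatase that switches off the JNK and p38 kinases, at 65.1 ± 21.1 and 25.2 ± 0.674 CPM (-1.37 ± 0.22; edgeR adjusted p = 0.00188). It is named here after its value was seen. Egr1, an early zinc finger factor named in the same way, did not pass, at a log2 fold change of 0.46 (adjusted p = 0.0875).

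Among the kinases and factors known to act on AP-1 genes and proteins, calls were no more frequent than among genes in general. Of 30 tested, 5 were higher and 4 lower (median -0.04), against 22.4% and 18.7% of all genes tested. Map3k1, an upstream kinase of JNK, went from 34.0 ± 5.30 to 110 ± 27.2 CPM (1.695 ± 0.22), Mapk7, the ERK5 kinase, from 10.2 ± 0.77 to 18.9 ± 3.14 CPM (0.89 ± 0.17), and Mapk11, a p38 kinase, had a log2 fold change of 1.68 ± 0.22. Map2k6, which activates p38, fell from 17.6 ± 1.39 to 8.47 ± 0.708 CPM (-1.06 ± 0.15; edgeR adjusted p = 0.00103; the 3 that rose had 0.00064 to 0.00402). With library totals in place of TMM factors 12 were higher and 1 lower (44% and 8.92% of all genes), and without both libraries numbered 3 it was 8 and 11 (32% and 30.4%). With TMM factors and all libraries Mapk14, another p38 kinase, was lower, from 162 ± 10.2 to 115 ± 8.96 CPM (-0.50 ± 0.12, edgeR adjusted p = 0.0131). Mapk11 had 3.11 ± 0.53 CPM in controls. Mapk12 (-0.14) and Mapk13 (0.53), also p38 kinases, did not pass. The other called genes were Map3k5 (-0.56) and Mapk10 (-1.03), lower, and Map3k8 (1.55) and Elk3 (0.59), higher. All of these but Mapk11 were named after their values were seen. These values are transcript levels, and the activity of the kinases was not measured.

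Genes reported in other tissues as AP-1 targets were mostly higher. Of 25 tested among 29 listed, 18 were higher and 3 lower (median 1.80), against 22.4% and 18.7% of all genes tested. The list, like the others here, was chosen with earlier results of these data known, so the count is no independent test. Among the 18, Timp1, Ccl2, Lif, Mmp3 and Il11 needed their Wnt1 libraries to pass the filter on low counts. Timp1, an inhibitor of matrix proteases, went from 0.318 ± 0.0498 to 28.2 ± 3.39 CPM (6.45 ± 0.22), Mmp12, a macrophage elastase, from 0.876 ± 0.0356 to 33.4 ± 6.45 CPM (5.25 ± 0.22), Tnc, the matrix protein tenascin C, from 12.8 ± 0.555 to 178 ± 38.6 CPM (3.80 ± 0.20) and the chemoattractant Ccl2 from 0.573 ± 0.141 to 10.7 ± 1.19 CPM (4.21 ± 0.25). Their edgeR adjusted p lay between 1.22e-05 and 3.37e-05. The lower members were Ccnd1, a cyclin (-1.02), Plau, the urokinase protease (-0.51), and Vegfa, a vascular growth factor (-0.62). With library totals 1 was lower. The 4 not called were Mmp13 (-0.62, edgeR adjusted p = 0.102), Mt1 (0.34), Hbegf (0.28) and Ets1 (0.28). The lower and uncalled genes were named after their values were seen. The same libraries held more macrophage markers (above) and more fibroblast and mural markers, 7 of 7 called higher and summing to 479 to 628 CPM in controls and 1984 to 3298 CPM with Wnt1. Their part in the rise of these targets was not tested.

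Of 18 tested genes of the stress pathways known to induce Atf3, 6 were higher and 2 lower (median 0.29), against 22.4% and 18.7% of all genes tested. With library totals it was 12 and 1, against 44% and 8.92%. Chac1, among the 6 higher, needed its Wnt1 libraries to pass the filter on low counts. Cdkn1a, the p53-induced cell cycle inhibitor, went from 5.60 ± 0.0612 to 27.7 ± 3.35 CPM (2.30 ± 0.16), Gdf15, a secreted stress cytokine, from 7.16 ± 1.36 to 17.5 ± 2.71 CPM (1.29 ± 0.20) and Trp53, which encodes p53, from 33.9 ± 0.683 to 62.3 ± 10.9 CPM (0.88 ± 0.15). Herpud1, a component of protein quality control in the endoplasmic reticulum, fell from 380 ± 62.0 to 169 ± 26.96 CPM (-1.17 ± 0.17; edgeR adjusted p = 0.00126; 5.13e-05 to 0.00285 for the 3 that rose). The other called genes were Asns, an amino acid synthetase (1.41, adjusted p = 0.00473), Trib3, a pseudokinase (1.04, 0.0269), and Chac1, a glutathione-degrading enzyme (1.03, 0.0325), all known targets of the Atf4 route and higher, and Ppp1r15a, a phosphatase subunit that ends the integrated stress response, which was lower (-0.46, 0.0346). Atf4, the factor that acts above Atf3 in the integrated stress response, did not pass (0.25, adjusted p = 0.17), nor did Ddit3, which encodes its target CHOP (0.33, adjusted p = 0.23). These 6 genes were named after their values were seen.

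Listed other bZIP genes, only some of them known partners of AP-1 proteins, were called higher about as often as genes in general. Of 29 tested among 32 listed, 7 were higher and 0 lower by edgeR, against 22.4% higher and 18.7% lower among all genes tested. It was 8 and 0 at an unadjusted p under 0.05, and 7 and 0 by DESeq2. The median log2 fold change of the 29 genes was 0.35. Batf3, among the 7 higher by edgeR, needed its Wnt1 libraries to pass the filter on low counts. With library totals 20 were higher (44% of all genes), and without both libraries numbered 3 it was 14 higher and 3 lower (32% and 30.4% of all genes). Creb5, a CREB-like factor that can pair with Jun, went from 0.709 ± 0.14 to 7.77 ± 2.86 CPM (3.45 ± 0.37), Nfe2l3, a CNC factor that pairs with small Maf proteins, from 1.02 ± 0.387 to 4.32 ± 0.769 CPM (2.07 ± 0.32), Cebpd, an acute-phase factor, from 12.0 ± 3.61 to 40.1 ± 7.81 CPM (1.74 ± 0.25) and Atf5 from 11.6 ± 0.314 to 21.6 ± 3.98 CPM (0.89 ± 0.17). Their edgeR adjusted p lay between 0.000285 and 0.00403. The other small Maf genes Mafg (0.07) and Mafk (-0.29), named after their values were seen, did not pass.

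The deposited table also assigns genes to transcription factor classes, and 53 genes, all 10 members among them, carry the bZIP class. Of the 48 tested, 38 were not members, and of these 7 were higher and 4 lower, against 22.4% and 18.7% of all genes tested. Their median log2 fold change was 0.28, and that of the members 1.84. Batf3, among the 7 higher, needed its Wnt1 libraries to pass the filter. This set was taken after the table had been read. Members held 6 of the 8 largest rises in the class, the others being Creb5 and Nfe2l3. Of those 6 members, Fosl1 and Batf needed their Wnt1 libraries to pass the filter.

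**Figure D3:**
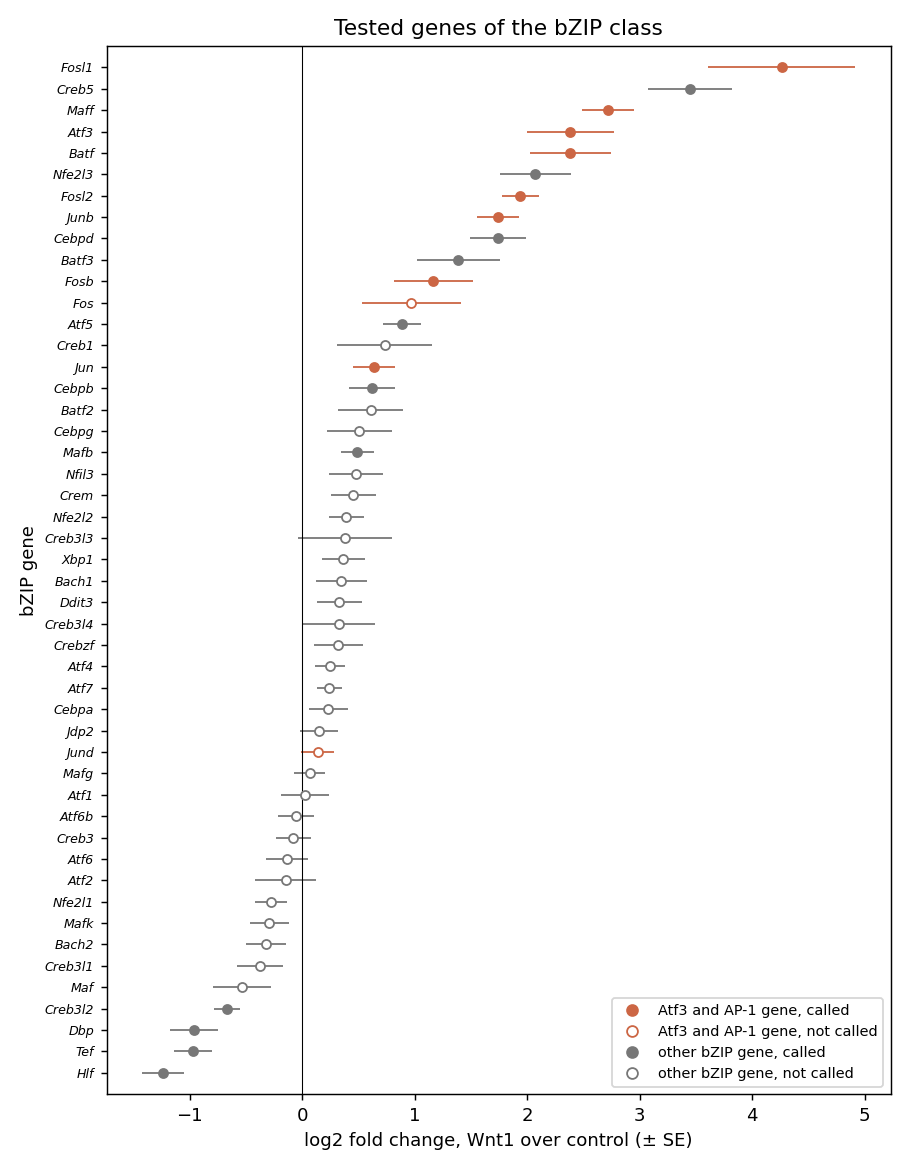
Log2 fold change (Wnt1 over control, ± SE) of the 48 tested bZIP genes, ordered by value, with the Atf3 and AP-1 genes in orange, other genes in grey, and filled points for an adjusted p under 0.05. The orange points lie mostly at the top, from 4.26 for Fosl1, whose fitted value rests on 3 control reads, down to 0.14 for Jund.

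The genes whose profile was most like that of Atf3 were found by the root mean square difference of log2(CPM + 0.5), centred on each gene's mean over the 6 libraries, among 13436 genes with a mean of at least 1 CPM in a group. In order they were Bin2 (0.13), Lcp2 (0.19), Selp (0.21), Clec10a (0.22), Inhbb (0.23), Mgl2 (0.25), Il1b (0.25) and Mmp9 (0.26). Their log2 fold changes lay between 2.24 and 2.59, so the measure mostly finds genes with a rise of the same size.

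The call counts were followed over 16 other settings. DESeq2 called 7 of 10 members higher, against 20.5% of all its genes. Scaling by library totals shifted the median of all genes from 0.05 to 0.47 and called all 10 members, against 44% of genes higher and 8.92% lower. With limma on log2(FPKM + 1), where 8 members passed the filter of an FPKM of at least 1 in 3 libraries, all 8 were called, against 41.3%. Atf3, Maff and Batf met that filter only through their Wnt1 libraries, so 8 of 8 partly reflects the filter. Without both libraries numbered 3, 9 of 10 were called, all but Jund, against 32% of genes higher and 30.4% lower. The log2 fold change of Jund was 0.56 with library totals (adjusted p = 0.0104) and 0.54 on the log2(FPKM + 1) scale (adjusted p = 0.00999), where the medians of all genes were 0.47 and 0.36. Atf3, Maff, Batf, Fosl2 and Junb were called in all 16 settings and Fosl1 in the 13 that tested it; Jun, Fos, Fosb and Jund were not.

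**Figure D4:**
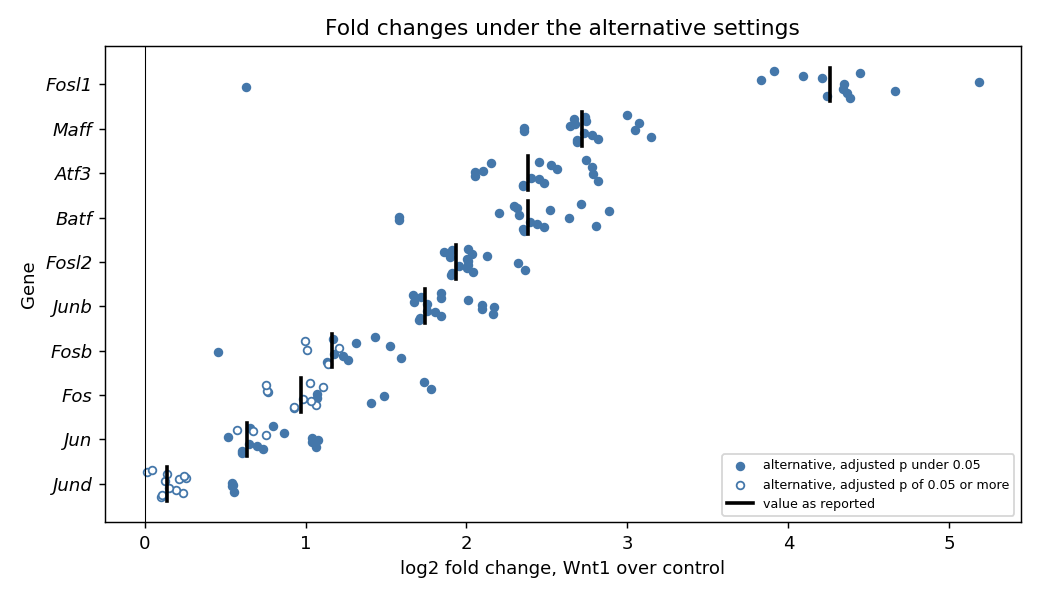
Log2 fold change (Wnt1 over control) of each gene under the alternative settings, filled for an adjusted p under 0.05, with a black bar for the value as reported. All values lie above 0; the open points belong to Jund, Jun, Fos and Fosb, and the single low value of Fosl1 (0.63) is from log2(FPKM + 1) without a filter.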

How the data were processed

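Per the labels' protocols, poly(A) RNA of kidney was sequenced with Illumina chemistry. RSEM, HISAT2, StringTie 1.3.1, Bowtie2 2.2.8 and fastp 0.18.0, with build mm10, come from the submitters' processing notes, which state no roles, annotation or use of strand. For every gene and library the authors deposited an expected count and an FPKM; 9.02% of the counts were not whole within 1e-06, and all were rounded here. Replicate numbers follow the order of the records and pair nothing. Genes passing filterByExpr were tested in R 4.3.3 with edgeR 4.0.16 (TMM factors, robust quasi-likelihood test, two-sided, Benjamini-Hochberg over 14432 genes). Standard errors come from the coefficient and the F statistic, so they add nothing to the p-value. Alternatives used DESeq2 1.42.0, limma 3.58.1 with trend on log2(FPKM + 1) or log2(FPKM + 0.1), other factors and filters, and left out libraries. The scripts were tested on simulated data. Positions are from GENCODE M21 (GRCm38, the assembly mm10 names), promoter windows from RefSeq (GRCm38.p6). Members and gene lists were chosen with earlier results of these data known. From each list up to 4 called genes with the smallest p were named, and the 8 profiles nearest to Atf3.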

Additional observations from a re-analysis of the deposited data

How the results depend on the processing

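Leaving out each library in turn gave 6 to 9 members called higher (against 18.4% to 28.5% of all genes); with fewer libraries the remaining ones are assumed to share their spread. The median-ratio and upper-quartile factors and no filter each gave 8, against 21.9%, 25.8% and 20% of all genes called higher. A filter on CPM gave 7 of the 9 members it tested (against 22.5%), and limma without a filter gave 10 (against 33.1%). Batf and Fosb, both among those 7, met the CPM filter only through their Wnt1 libraries, so that count partly reflects the filter. Members called lower stayed at 0 in all 16 settings, where for example 8.92% of all genes were lower with library totals and 30.4% without both libraries numbered 3. Jund's share of the Jun family differed by -20.0 percentage points without both libraries numbered 3 (-17.3 with all). Fosl1's share differed by 0.855 points on the CPM scale, which does not divide by length (2.39 on FPKM). Fosb's share turned without control replicate 2 (-1.63 to 0.11 over the libraries left out, -0.93 with all). With library totals 44% of all genes were higher and 8.92% lower. The higher and lower counts were then 20 and 0 for the listed other bZIP genes and 12 and 1 for upstream kinases. They were 21 and 1 for reported targets, 19 and 1 for immediate early genes and 12 and 1 for stress genes. Without both libraries numbered 3, 32% of all genes were higher and 30.4% lower. In the same order the counts were then 14 and 3, 8 and 11, 21 and 3, 18 and 3, and 7 and 2. Unless stated, the cause was not tested. Fosl1 and, in controls, Batf and Fosb rest on at most 33 and 20 reads per library, which limits the precision of their folds.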

Other observations

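Other members of the bZIP class went the opposite way. Hlf, Tef and Dbp, the PAR factors that carry clock output in kidney and liver, fell from 112 ± 15.9 to 47.7 ± 10.2 CPM (log2 fold change -1.23 ± 0.19, edgeR adjusted p = 0.00141), from 411 ± 37.2 to 210 ± 41.0 CPM (-0.97 ± 0.17, adjusted p = 0.00265) and from 185 ± 7.10 to 94.7 ± 29.9 CPM (-0.96 ± 0.21, adjusted p = 0.00824). Creb3l2, a membrane-bound factor of the secretory pathway, fell from 112 ± 1.36 to 70.3 ± 3.20 CPM (-0.67 ± 0.11, adjusted p = 0.00223). These were the 4 called falls among the 48 bZIP genes tested and were named after their values were seen.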
